A study of Homo sapiens with 4 samples.

Results

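Transcript levels of EGF-family ligands and of the ERBB receptors they bind were examined in MDA-MB-231 cells and their lung-metastatic derivative. The 10 members are 6 ligand genes (EREG, AREG, HBEGF, TGFA, BTC and NRG1) and 4 receptor genes (EGFR, ERBB2, ERBB3 and ERBB4), chosen by name from a table of 57815 genes. MDA-MB-231 cells come from triple-negative breast cancer. The derivative, LM2-4175 (LM2 in the authors' table and from here on), was isolated from them and spreads to the lung more aggressively, so the comparison asks which transcripts differ in the lung-metastatic line. Both lines were grown untreated in DMEM with serum, and total RNA of each was sequenced in 2 libraries, 4 in all. The authors' table holds for each gene and cell line 1 FPKM (fragments counted on a transcript, divided by its length and by the library's mapped fragments), in which the libraries of a line are combined, with a lower and an upper bound. No value per library was available here, so there is no SD, no replicate check and no p-value, and the bounds are the only error given.

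Ligands of the EGF family are made as membrane-anchored precursors and are released by metalloproteases of the ADAM family. They bind ERBB receptor tyrosine kinases, which pair up and signal to the RAS-ERK and PI3K-AKT pathways. EGFR (also ERBB1) is bound by EREG, AREG, HBEGF, TGFA and BTC, some of which also bind ERBB4, whereas NRG1 binds ERBB3 and ERBB4. ERBB2 has no ligand of its own and acts as a partner, and ERBB3 has little kinase activity of its own. In triple-negative breast cancer ERBB2 is not amplified and EGFR is often high.

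The ligands changed in opposite directions, while no receptor passed the rule for a change. Folds in this paragraph are plain ratios of FPKM, while the log2 changes below use FPKM + 1. EREG (8.16-fold) and HBEGF (2.06-fold) were higher in LM2. AREG (6.2-fold) and NRG1 (1.97-fold) were lower, and TGFA and BTC differed little. EREG and AREG, which changed most, are neighbours on chromosome 4, and their ratio turned from 0.628 in MDA-MB-231 to 31.8 in LM2.

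The 250 bases before the start of EREG, AREG and HBEGF are shown, because EREG and AREG lie side by side and moved apart and HBEGF rose with EREG. They are from RefSeq on GRCh38.p14, 5′ to 3′ on the gene's strand, and capitals mark the motif matches described after them.
EREG: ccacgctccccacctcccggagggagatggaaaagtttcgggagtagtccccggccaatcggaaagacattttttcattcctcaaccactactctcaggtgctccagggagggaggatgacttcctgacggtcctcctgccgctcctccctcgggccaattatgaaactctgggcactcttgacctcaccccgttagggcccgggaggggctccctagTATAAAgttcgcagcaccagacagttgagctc
AREG: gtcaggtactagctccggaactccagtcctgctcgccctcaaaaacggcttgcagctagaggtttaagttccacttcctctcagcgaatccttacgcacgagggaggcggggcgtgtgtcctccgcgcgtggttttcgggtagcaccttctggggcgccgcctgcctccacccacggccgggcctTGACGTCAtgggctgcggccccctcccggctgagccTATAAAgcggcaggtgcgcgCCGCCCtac
HBEGF: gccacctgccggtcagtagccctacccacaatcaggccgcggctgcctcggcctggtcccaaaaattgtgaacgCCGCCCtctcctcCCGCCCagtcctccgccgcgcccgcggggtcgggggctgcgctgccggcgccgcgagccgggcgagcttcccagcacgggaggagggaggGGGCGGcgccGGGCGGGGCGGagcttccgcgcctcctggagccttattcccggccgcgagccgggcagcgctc

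The windows are chr4:74364895-74365144 (plus strand) for EREG, chr4:74444886-74445135 (plus strand) for AREG and chr5:140346604-140346853 (minus strand) for HBEGF. Of the 10 members, 8 had an entry in the promoter table, and NRG1 and ERBB3 did not. The motifs were searched on both strands as the TATA box TATAAA, the cAMP response element TGACGTCA, the AP-1 site TGANTCA and the GC box GGGCGG, together with the NF-kB site. EREG and AREG each hold a TATA box, whose first base lies at -32 and -29 from the start. EPGN, the ligand gene before EREG, also holds a TATA box at -29 and had at most 0.0418 FPKM in either line. A TATA box was found in 10.7% of 35116 promoters of this length. The shares of promoters given here count a match on either strand and at any place in the window. Promoters with a TATA box at the positions seen in EREG, AREG and EPGN were not counted separately. AREG also holds a cAMP response element at -65, which was found in 1.65% of promoters, and a GC box at -9. HBEGF holds GC boxes at 5 places, 2 of them overlapping, and GC boxes were found in 42.6% of promoters. TGFA, which differed little between the lines, also holds GC boxes. The part of these motifs in the changes was not tested. Neither EREG, AREG nor HBEGF holds the letters of the AP-1 site (6.57% of promoters) or a match to the NF-kB site (1.73%) in this window. The GC content was 58% for EREG, 65.2% for AREG and 76.4% for HBEGF, against a median of 58% over all promoters.

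Changes are log2 values of FPKM + 1, LM2 minus MDA-MB-231, on which low genes appear to change less than they do. To be called, a gene needed a mean of at least 0.5 FPKM, a difference of 1.5-fold or more on this scale, and bounds that left a gap between the lines. Of 13911 genes that passed the filter on low values and had the authors' status OK, 9.27% were called, 4.67% higher and 4.61% lower. The study's own test, with Cuffdiff, reported more genes changed in each direction. Whether that test called members left uncalled here was not examined. Among the members, 9 of 10 passed the filter, ERBB4 being too low. Of all 6 ligands 2 were called higher and 2 lower, and of the 3 receptors that passed none was called. The median log2 change of the ligands was 0.03, close to the median of -0.04 over all genes tested, since the rises and falls offset each other. A call therefore describes the combined libraries of each line, not replicates, and whether the bounds include differences between libraries is not given in the sources used here.

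**Figure D1:**
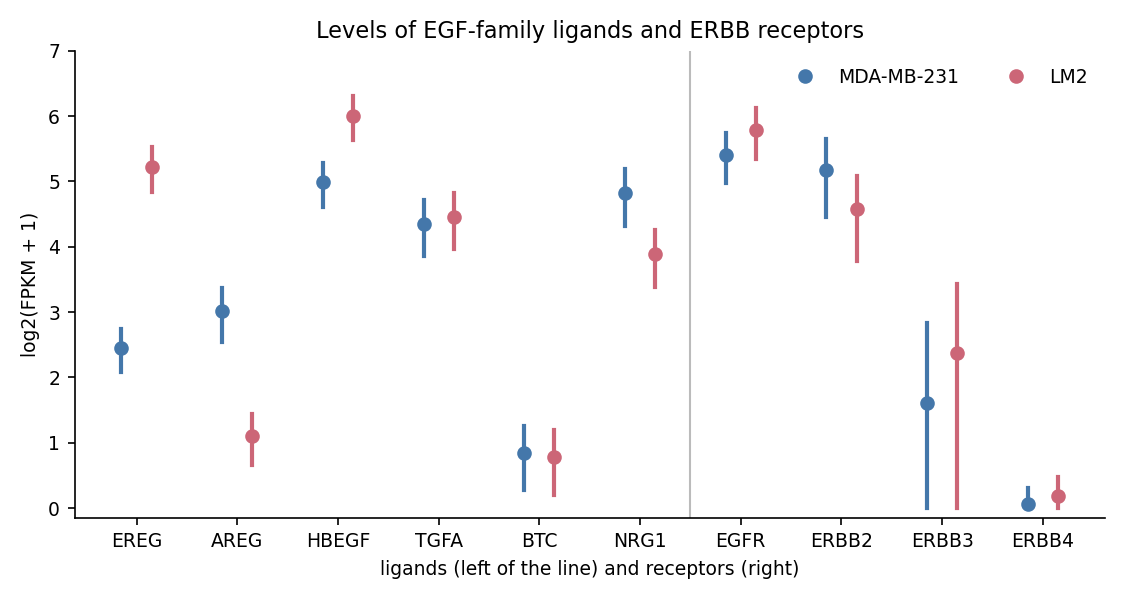
FPKM of the 6 ligands and 4 receptors on the log2(FPKM + 1) scale in MDA-MB-231 (blue) and LM2 (red), as the authors' 1 value per cell line (point) with its lower and upper bound (line). The lines of EREG, AREG, HBEGF and NRG1 do not overlap between the cell lines, and those of the other members do.

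EREG encodes epiregulin, a ligand of EGFR and ERBB4. The gene (ENSG00000124882) spans bases 75230862 to 75254466 of chromosome 4 (GRCh37, plus strand). Its level was 4.45 FPKM in MDA-MB-231 (bounds 3.22 and 5.69), against 36.3 FPKM in LM2 (27.7 and 45.0). The log2 change was 2.78, and only 63 of the 13911 genes had a larger rise. Ranked by level among the genes tested, EREG moved from place 9697 to place 2971. The lower bound in LM2 exceeded the upper bound in MDA-MB-231 by 22 FPKM, which is several times the whole level in the parental line. With the bounds set against each other, the ratio lay between 4.87 and 14.0. EREG was called higher under all 11 alternative settings, with log2 changes of 2.78 to 3.03.

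AREG encodes amphiregulin, a ligand of EGFR that carries a heparin-binding stretch. It lies 56.4 kb after EREG on the same strand (ENSG00000109321, chromosome 4, 75310853 to 75320722). AREG had 7.08 FPKM in MDA-MB-231 (bounds 4.82 and 9.35), against 1.14 FPKM in LM2 (0.582 and 1.71). Its log2 change was -1.92, and 121 genes had a more negative one. AREG and EREG had overlapping bounds in MDA-MB-231, while in LM2 AREG lay far below EREG. The ratio of EREG to AREG could lie by the bounds between 0.344 and 1.18 in the parental line, against 16.2 and 77.3 in LM2, and these ranges do not overlap. AREG was called lower in each of the 11 settings that gave it a value, and with a minimum mean of 5 FPKM it was not tested.

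GENCODE 19 has a copy of AREG, AREGB (ENSG00000205595), 159.9 kb further on. Of the windows of 150 bases along the AREG transcript, 86.2% are found without a mismatch in AREGB transcripts, so reads cannot be assigned to 1 copy with certainty. The table lists AREGB at 0.0448 FPKM in MDA-MB-231 (bounds 0 and 0.157), against 0.00373 FPKM in LM2 (0 and 0.067). Nearly all of the signal was therefore listed under AREG, and the sum of the copies gave a log2 change of -1.92 and the same call.

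HBEGF encodes heparin-binding EGF-like growth factor, which binds EGFR and ERBB4 and whose precursor is also the receptor of diphtheria toxin. It had the highest value of the ligands in both lines, though in MDA-MB-231 its bounds overlap those of NRG1 and TGFA, with 30.7 FPKM in MDA-MB-231 (bounds 23.5 and 38.0), against 63.3 FPKM in LM2 (48.7 and 77.9). The log2 change was 1.02, and the bounds were 10.8 FPKM apart. HBEGF lies on chromosome 5 (ENSG00000113070, 139712428 to 139726188, minus strand) and was called higher under all 11 alternatives. A larger log2 change was found for 591 genes, so HBEGF lay closer to the bulk of genes than EREG.

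NRG1 encodes neuregulin 1, the ligand of ERBB3 and ERBB4. Its level was 27.2 FPKM in MDA-MB-231 (bounds 18.9 and 35.5), against 13.8 FPKM in LM2 (9.46 and 18.2), a log2 change of -0.93. The bounds were only 0.691 FPKM apart, which makes NRG1 the narrowest call of the members. It was not called after scaling to TPM (log2 change -0.87), after quantile normalization (-0.85) or with a fold threshold of 2. Exons of other genes overlap 9.47% of the exon bases of NRG1 (ENSG00000157168, chromosome 8, 31496738 to 32713184, plus strand), none of them on the opposite strand.

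TGFA, which encodes transforming growth factor alpha, a ligand of EGFR, had nearly equal levels. They were 19.3 FPKM in MDA-MB-231 (bounds 13.5 and 25.2), against 20.9 FPKM in LM2 (14.6 and 27.3). The log2 change was 0.11, and the bounds leave room for a ratio of 0.58 to 2.03. BTC, which encodes betacellulin, a ligand of EGFR and ERBB4, was low in both lines. It had 0.797 FPKM in MDA-MB-231 (bounds 0.21 and 1.38), against 0.723 FPKM in LM2 (0.149 and 1.3), and bounds this wide allow a ratio anywhere between 0.108 and 6.18. For TGFA and BTC no change was detectable by the bounds, and a change of up to these sizes is not excluded.

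FPKM is scaled by transcript length, so levels can be ordered between genes. In MDA-MB-231 the order of the ligand levels was HBEGF, NRG1, TGFA, AREG, EREG and BTC. The bounds of HBEGF, NRG1 and TGFA overlap each other there, as do those of AREG and EREG, so these neighbours cannot be ordered. In LM2 the order was HBEGF, EREG, TGFA, NRG1, AREG and BTC, and the bounds overlap for TGFA and NRG1 and for AREG and BTC. HBEGF and EREG, the highest in LM2, had bounds apart from each other and from all ligands below them.

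The summed level of the 6 ligands was 89.6 FPKM in MDA-MB-231 against 136.3 FPKM in LM2. EREG went from 4.97% of this sum in the parental line to 26.7% in LM2, and the share of NRG1 went from 30.4% to 10.1%. For the EREG share the bounds allow 2.86% to 8.55% in the parental line against 18.0% to 38.0% in LM2. For the NRG1 share they allow 19.2% to 44% against 5.82% to 16.5%. The ranges of neither gene overlap between the lines. HBEGF had shares of 34.3% and 46.5%, with overlapping ranges, and AREG went from 7.91% to 0.839%.

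**Figure D2:**
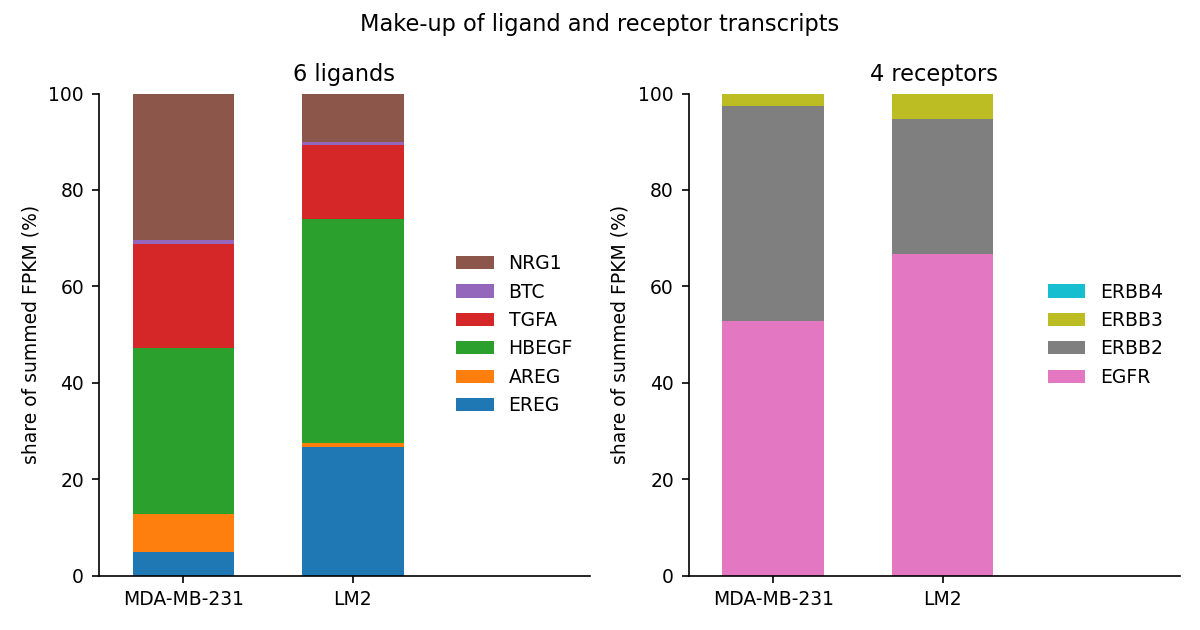
Share of each gene in the summed FPKM of the 6 ligands (left) and of the 4 receptors (right), in percent, for MDA-MB-231 and LM2. The EREG part grows from 4.97% to 26.7% while the NRG1 part shrinks from 30.4% to 10.1%, and EGFR goes from 52.8% to 66.7% of the receptors.

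EGFR had the highest level of the receptors in both lines, with bounds apart from those of ERBB2 in LM2 alone. It had 41.4 FPKM in MDA-MB-231 (bounds 30.3 and 52.5), against 54.3 FPKM in LM2 (39.6 and 69.0), a log2 change of 0.38. The bounds overlap and allow a ratio of 0.754 to 2.28. EGFR (ENSG00000146648) lies on chromosome 7 from 55086710 to 55279321, and 1.17% of its exon bases are shared with EGFR-AS1, an antisense gene.

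ERBB2, the gene of HER2, had 35.0 FPKM in MDA-MB-231 (bounds 20.9 and 49.0), against 22.8 FPKM in LM2 (12.8 and 32.7), a log2 change of -0.60. The change passed 1.5-fold, but the bounds overlap and allow a ratio of 0.261 to 1.57, so ERBB2 was not called. By the fold alone, ERBB2 would count as lower and ERBB3 as higher, and so would 11.8% and 10.3% of all genes tested (22.1% in either direction). ERBB2 (ENSG00000141736, chromosome 17, 37844167 to 37886679) shares 6.93% of its exon bases with MIEN1 and PGAP3, which run antisense to it.

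ERBB3 and ERBB4, the receptors of NRG1, were much lower. ERBB3 (ENSG00000065361, chromosome 12) was listed at 2.05 FPKM in MDA-MB-231 (bounds 0 and 6.13), against 4.2 FPKM in LM2 (0 and 9.81). As both lower bounds are 0, its log2 change of 0.77 cannot be told from none. ERBB4 (ENSG00000178568, chromosome 2) had 0.0429 FPKM (bounds 0 and 0.238) against 0.137 FPKM (0 and 0.383) and did not pass the filter.

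The summed level of the 4 receptors was nearly the same, 78.5 FPKM in MDA-MB-231 against 81.4 FPKM in LM2. EGFR went from 52.8% of it to 66.7%, and ERBB2 from 44.5% to 28.0%. By the bounds the EGFR share could be 35.4% to 71.5% and 48.0% to 84.4%, so the shares cannot be told apart. EGFR exceeded ERBB2 by a ratio of 1.19 in the parental line and 2.39 in LM2, again with overlapping ranges (0.619 to 2.51 and 1.21 to 5.39).

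**Figure D3:**
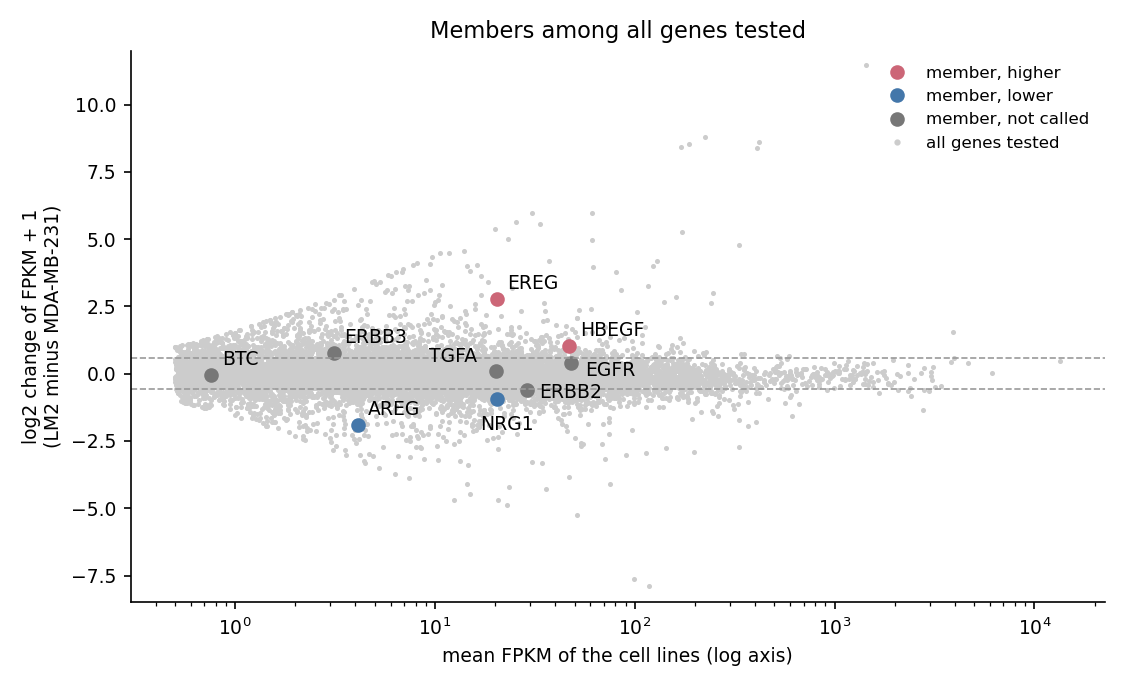
Log2 change of FPKM + 1 (LM2 minus MDA-MB-231) against mean FPKM (log axis) for the 13911 genes tested (grey) and the 9 members among them, coloured by call, with dashed lines at a 1.5-fold change either way. EREG (2.78) and AREG (-1.92) lie far from the bulk of the genes, and EGFR, TGFA and BTC lie within it.

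The other EGF-family ligands were low. EGF, the ligand that names the family, had 1.49 FPKM in MDA-MB-231 (bounds 0.19 and 2.79), against 1.33 FPKM in LM2 (0.555 and 2.1). NRG2, a further neuregulin, had 0.198 FPKM (bounds 0 and 0.5) against 0.843 FPKM (0.403 and 1.28), a log2 change of 0.62 with overlapping bounds. NRG3 and NRG4 were under the filter, with upper bounds of at most 0.495 FPKM, and EPGN had 0.0418 FPKM in LM2 and was listed at 0 in the parental line. None of the 2 ligands tested in this group was called.

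EPGN, EREG, AREG, AREGB and BTC form a cluster of ligand genes on chromosome 4, next to a cluster of CXC chemokines. Of the 10 protein-coding genes tested within 1 Mb of EREG, 5 were called higher and 1, AREG, was called lower, against 4.67% and 4.61% of all genes. The genes called higher were IL8, CXCL1, CXCL3 and CXCL2, which encode chemokines that attract neutrophils, and PARM1. IL8 had 7.75 FPKM in MDA-MB-231 against 338.2 FPKM in LM2 (log2 change 5.28). CXCL2, 265.9 kb before EREG, had 4.03 FPKM (bounds 2.58 and 5.47) against 44.7 FPKM (33.8 and 55.6), a log2 change of 3.18. PARM1, 603.8 kb after EREG, had 0.222 FPKM and 2.59 FPKM (log2 change 1.56). Between the chemokines and EREG, MTHFD2L had a log2 change of 0.49 and was not called. AREG was the lowest of the 10 in log2 change and BTC the next, at -0.06, so the rises did not extend evenly along the stretch. Within 3 Mb, the median log2 change of 30 genes was 0.14.

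The stretch around EGFR on chromosome 7 held mostly lower values. All 11 entries for protein-coding genes tested within 1 Mb of it had a lower FPKM in LM2, while EGFR had a higher one. Over all 13911 genes tested, 7585 had a lower FPKM. The 11 entries near EGFR stand for 10 gene names, since MRPS17 has 2 entries. Their median log2 change was -0.62, and 4 entries (LANCL2, VOPP1, CCT6A and SUMF2) were called lower, against 4.61% of all genes. LANCL2, 153.7 kb from EGFR, had 13.0 FPKM in MDA-MB-231 (bounds 9.23 and 16.8), against 3.72 FPKM in LM2 (2.46 and 4.99). VOPP1, 224.4 kb away, had a log2 change of -0.77. The genes near HBEGF and NRG1 had medians close to 0. Around HBEGF 32 genes had a median log2 change of -0.02, with 1 called higher (IGIP, 0.73) and 1 called lower (PCDHB13, -0.69). Around NRG1 9 genes had a median of 0.05, with 1 called lower (GSR, -0.82).

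**Figure D4:**
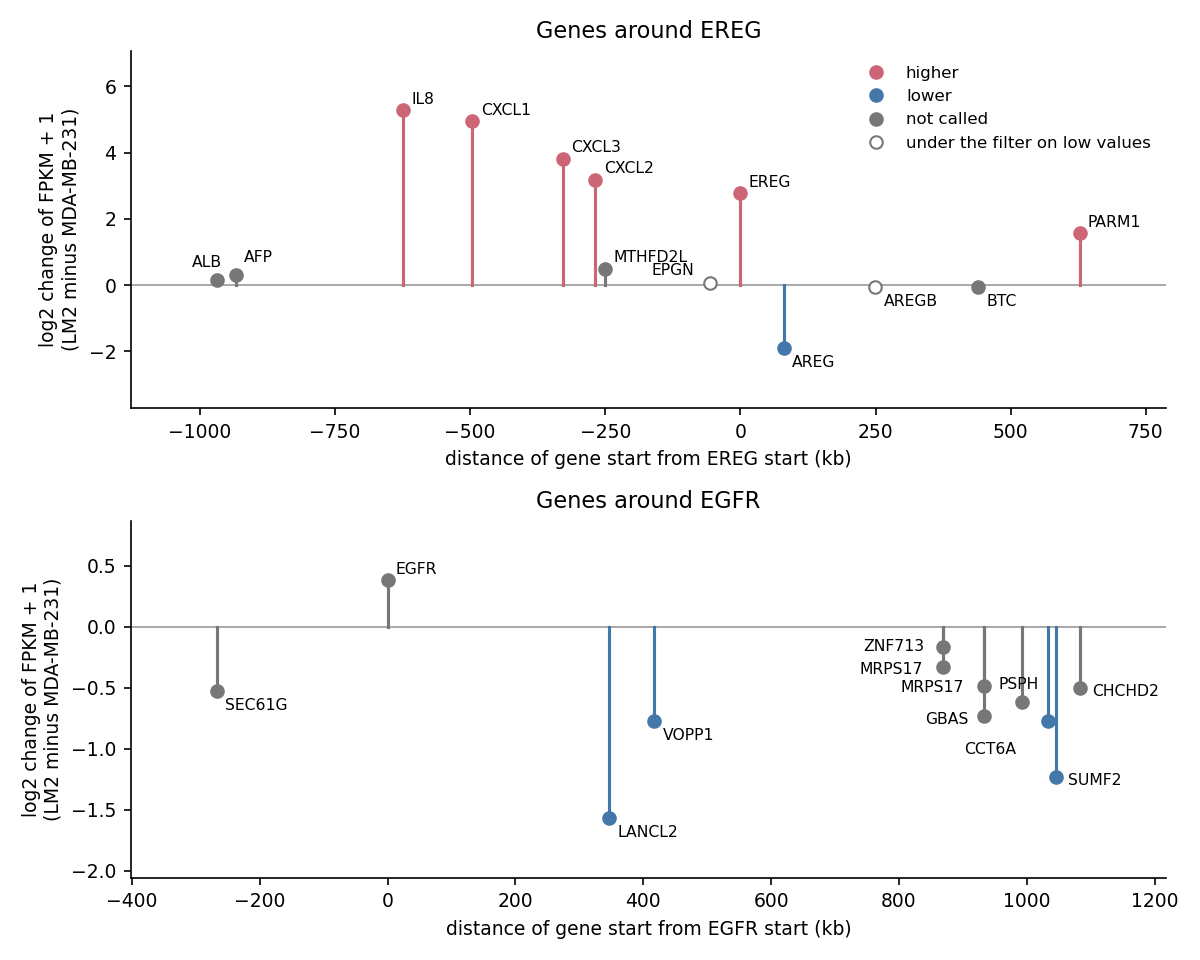
Log2 change of FPKM + 1 (LM2 minus MDA-MB-231) of protein-coding genes around EREG (top) and EGFR (bottom), by the distance of their starts in kb, coloured by call, with open points for genes under the filter on low values. In the top panel the chemokine genes and EREG are higher and AREG is lower, and in the bottom panel the genes around EGFR are lower while EGFR, at 0.38, is not.

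Of 12 genes of ligand shedding, all tested, 1 was called lower and none higher, and the median log2 change was -0.26. The gene called was ADAM10, the metalloprotease known to release BTC and EGF, with 79.4 FPKM in MDA-MB-231 (bounds 57.9 and 100.9), against 37.7 FPKM in LM2 (27.4 and 48.0), a log2 change of -1.06. ADAM17, the protease known to release AREG, EREG, HBEGF and TGFA, was named for this role after its values were seen. It had 15 FPKM (bounds 10.4 and 19.7) against 15.6 FPKM (11.4 and 19.8), a log2 change of 0.05.

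Among 19 tested genes of receptor inhibition and turnover, 1 was called higher and 2 lower, with a median of 0.01. NEDD4, which encodes a ubiquitin ligase, had 12.9 FPKM in MDA-MB-231 against 26.4 FPKM in LM2 (log2 change 0.98). SH3KBP1, which encodes an adaptor of CBL in the uptake of EGFR, had 80.2 FPKM and 36.8 FPKM (log2 change -1.10). PTPRJ, which encodes a receptor tyrosine phosphatase, had 37.2 FPKM and 21.3 FPKM (-0.77). Of 13 receptor adaptors tested, 1 was called, the SH2 and SH3 adaptor gene NCK2, with 23.8 FPKM and 11.6 FPKM (-0.98). The bounds of NCK2 left a gap of only 0.0454 FPKM between the lines. SHC1, listed at 116.4 FPKM in MDA-MB-231 and 102.7 FPKM in LM2, was not tested because the authors' status for it was not OK. SHC2 and SHC4 were under the filter on low values.

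The signalling chains after the receptors held no gene called. The 11 genes from RAS to ERK had a median log2 change of -0.02, and the largest differences were in ARAF (-0.78) and KSR1 (0.52), both with overlapping bounds. Among 11 genes of the PI3K-AKT chain the median was -0.12. PIK3CD, the gene of a catalytic PI3K subunit, had 5.36 FPKM in MDA-MB-231 (bounds 0 and 10.7), against 17.6 FPKM in LM2 (4.67 and 30.5), and PIK3R1, the gene of a regulatory subunit, had a log2 change of 0.57.

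Of 16 tested genes known to be induced by ERK, 3 were called higher and 1 lower, with a median log2 change of 0.28. Those called higher encode inhibitors of the same pathway. Other such inhibitors on the list were not called, namely DUSP6 (log2 change 0.23), SPRED2 (0.50), SPRED1 (-0.01) and SPRY2 (-0.32). DUSP5, an ERK phosphatase gene, rose from 18.9 FPKM (bounds 14.3 and 23.5) to 83.5 FPKM (64.3 and 102.7), a log2 change of 2.08. SPRY4 rose from 22.4 FPKM (bounds 15.9 and 29.0) to 52.5 FPKM (38.4 and 66.6), and DUSP4 from 46.3 FPKM (bounds 35.5 and 57.1) to 85.8 FPKM (66.2 and 105.3). FOS, a subunit of AP-1, fell from 17.6 FPKM (bounds 12.6 and 22.7) to 2.99 FPKM (1.84 and 4.14), a log2 change of -2.23. Of the 16 genes, 12 had a higher FPKM in LM2 and 4 a lower one, against 6326 and 7585 of all genes tested. The list thus leaned to higher values but held changes both ways, depending on the gene. Over the 7 pathway lists together, 9 of 84 genes tested were called (10.7%), close to the 9.27% of all genes. Of the 6 ligands 4 were called, on a list that is small.

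**Figure D5:**
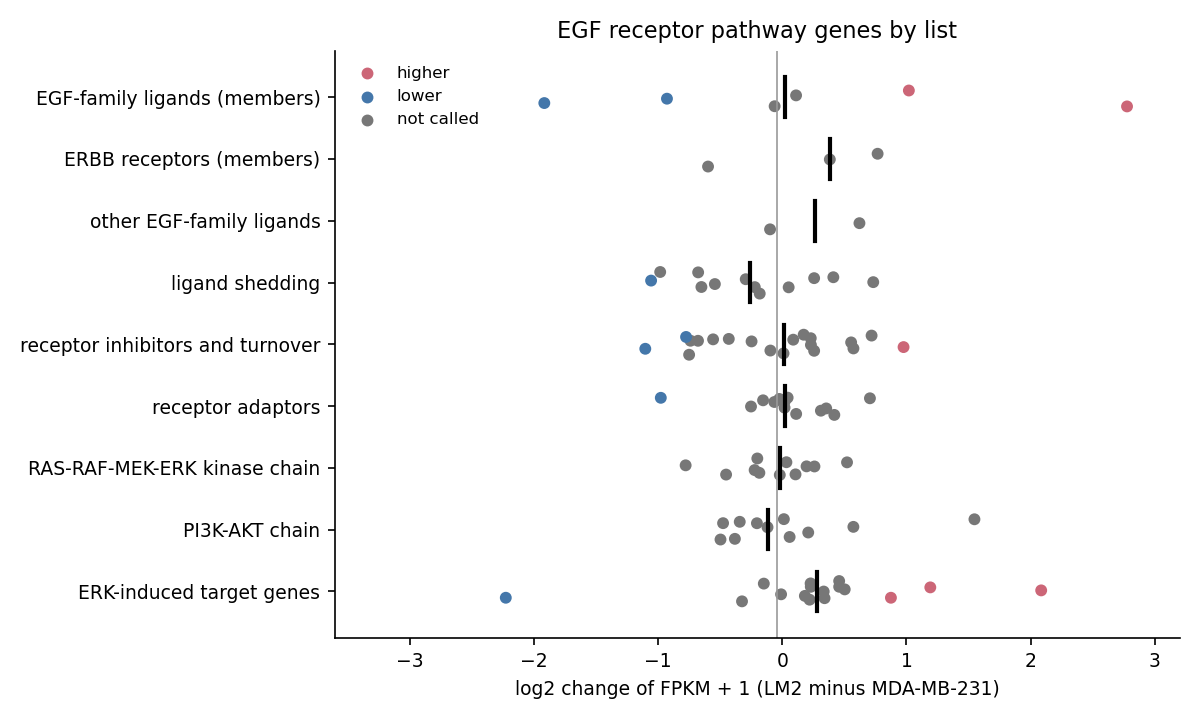
Log2 change of FPKM + 1 (LM2 minus MDA-MB-231) of each tested gene in the ligand, receptor and pathway lists, coloured by call, with the list median as a black bar and the median of all genes tested (-0.04) as a grey line. The ligands spread from -1.92 to 2.78, while the RAS-ERK and PI3K-AKT genes have no call.

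Of the markers of cell identity, the hormone receptor genes ESR1 and PGR had at most 0.0331 FPKM in either line. The 6 mesenchymal markers, all tested, went both ways, with summed levels of 2854 FPKM in the parental line and 2868 FPKM in LM2. SPARC was called higher (13.6 FPKM against 231.7 FPKM in LM2) and CAV1 lower (587 FPKM against 151 FPKM), while VIM (1355 FPKM against 1768 FPKM), ZEB1, CD44 and AXL were not called. Of 6 epithelial markers 5 were tested, and all 5 had a lower FPKM in LM2, whereas the ligands went both ways. EPCAM, CLDN4, KRT8 and KRT18 were called lower, and CDH1 (log2 change -0.44) was not called. ESRP1, under the filter, had 0.144 FPKM in MDA-MB-231 against 0.439 FPKM in LM2. The summed level of the 6 epithelial markers was 1157 FPKM in MDA-MB-231 against 369.7 FPKM in LM2. Among the white blood cell markers CD3E was listed at 0 in both lines and PTPRC was under the filter, and the 2 genes tested were not called, CSF1R with 2.92 FPKM against 0.79 FPKM in LM2 and CD14 with 1.17 FPKM against 1.75 FPKM. The endothelial marker KDR was called higher (0.971 FPKM against 2.48 FPKM), with CDH5, TEK and VWF under the filter. The summed level of the white blood cell markers was 4.17 FPKM in the parental line and 2.59 FPKM in LM2, and that of the endothelial markers 1.07 FPKM and 2.66 FPKM. The 5 lung epithelium markers were all under the filter, with summed levels of 0.74 FPKM in the parental line and 0.0998 FPKM in LM2. Of these, NKX2-1 had 0.565 FPKM in MDA-MB-231 (bounds 0.224 and 0.905), against 0.0855 FPKM in LM2 (0 and 0.195). The part of these markers in the ligand changes was not tested.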

How the data were processed

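RNA-Seq of MDA-MB-231 and LM2 (2 libraries each) was used. Per the labels and the study's methods, the authors aligned reads to hg19 with TopHat 2.0, quantified GENCODE 19 genes with Cufflinks and compared the lines with Cuffdiff. They deposited FPKM values with bounds and a status, 1 per gene and cell line. Scaling of libraries and use of strand are not given in the sources used here, and although the study lists aligned reads per library, the table holds no fragment counts per gene, so precision was read from the bounds. Over the 9 members tested, upper bounds exceeded the FPKM by a median of 30.6% in MDA-MB-231 and 31.5% in LM2.

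Calls used status OK, a mean of at least 0.5 FPKM, a pseudocount of 1, a fold of 1.5 and bounds that did not overlap. The rule was also run on simulated data with noise drawn from the bounds themselves. That run cannot show how the calls hold between libraries. GENCODE 44 on GRCh37, which held 55535 of the gene IDs, gave positions and the share of exons that overlap. Python 3.11.15, NumPy 2.4.6, pandas 2.3.3 and Matplotlib 3.10.9 were used. The members and gene lists were chosen with earlier results of these data known. Named are all members, the other ligands, AREGB, genes called in each pathway list (or the 2 largest changes where none was called), up to 6 called neighbours within 1 Mb of a called member, and the 3 genes nearest in level to each called member. The neighbours of EGFR and the uncalled inhibitors among the ERK-induced genes were named after their values were seen.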

Additional observations from a re-analysis of the deposited data

How the results depend on the processing

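Changing the pseudocount, the filter, the fold, the use of the bounds or the scaling reversed the direction of no member. The counts of genes called were 649 higher and 641 lower. They were 321 higher and 443 lower with a minimum mean of 5 FPKM, 450 and 403 with a fold of 2, 1434 and 1640 with the fold alone, and 784 and 574 after scaling to TPM, where 57.7% of calls were higher against 50.3%. The ligands called lower went from 2 to 1 with a minimum mean of 5 FPKM, where AREG was not tested, and with a fold of 2, TPM or quantile normalization, where NRG1 was not called. With the fold alone, 1 receptor was higher (ERBB3) and 1 lower (ERBB2). No scaling shifted the median of all genes by over 0.0756 on the log2 scale. No paired analysis was possible because the table holds 1 combined value per cell line, and for the same reason no library could be left out. Of the low members, ERBB4 was under the filter, BTC had little difference between wide bounds, and ERBB3 was not called because its bounds overlap.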

Other observations

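The genes nearest in level to each ligand called were looked up among the 13911 genes tested, by the distance between log2(FPKM + 1) in both cell lines. This likeness rests on 2 pooled values per gene. For EREG the nearest gene was CXCL2, which lies in the same stretch of chromosome 4, at a distance of 0.313. It was followed by METRNL, with 4.37 FPKM in MDA-MB-231 against 27.2 FPKM in LM2, and ALDH1A3, an aldehyde dehydrogenase gene, with 5.81 FPKM and 30.1 FPKM. AREG lay nearest to ARTN, which encodes the neurotrophic ligand artemin (7.05 FPKM and 1.25 FPKM), then to BZRAP1 and NANOS1. The genes nearest to HBEGF were NABP1, AOX1 and SLC38A1, an amino acid transporter gene with 32.9 FPKM and 61.9 FPKM. Those nearest to NRG1 were MXD3, CYB561 and SCARB1, a lipoprotein receptor gene with 26.6 FPKM and 14.2 FPKM. Genes were much denser around HBEGF and NRG1, where all 3 distances were at most 0.0995, than around EREG, where few genes share its levels.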
